A study of Homo sapiens with 6 samples.

Results

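Collagen chain genes were measured on Affymetrix gene arrays in RNA that co-precipitated with AGO2, an Argonaute protein that carries microRNAs. The cells were PC3, an established androgen-independent prostate cancer line. On 3 arrays the cells had been transfected with a miR-205 mimic, and on the other 3 with a negative control mimic. The title of the series gives the aim, to find targets of miR-205. All 6 arrays were AGO2 precipitates and none of input RNA was used here, so altered loading of a transcript on AGO2 and altered amounts of that transcript cannot be told apart. The same holds for fewer expressing cells and less RNA per cell. The members were all genes whose single symbol on the platform had the form COL, number, A, number. They numbered 43 of the 18417 genes measured. COL11A2 had 3 single-gene probe sets and every other member had 1.

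Collagens are trimers of chains built on repeats of glycine and other amino acids that wind into a helix. Fibrillar collagens form the cables of connective tissue, type IV collagen forms the sheet of the basement membrane, and type VI collagen forms beaded microfibrils between them. Further members sit on fibrils, span the cell membrane or anchor epithelium to stroma. miR-205 is a microRNA of epithelial cells that is known to repress ZEB1, a repressor of epithelial genes, and tumour cells that leave the epithelial state often change their matrix genes. The mature microRNA is shown because its seed, bases 2 to 8 (in capitals), is the stretch that pairs with targets. Its gene lies on the plus strand at chr1:209432166-209432187 (GRCh38.p14, RefSeq).
hsa-miR-205-5p: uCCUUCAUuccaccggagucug
Matches to this seed in collagen transcripts were not counted here.

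Medians of the log2 signal over all probe sets lay between 6.82 and 6.86 on the 6 arrays. The values were already quantile-normalized between arrays, so these medians do not compare the RNA yield of the precipitates. Differences between arrays of the same group had an SD over genes of 0.131 to 0.146 with the miR-205 mimic and of 0.155 to 0.218 with the negative control mimic. Negative control replicate 2 stood apart: its differences from the other control arrays had SDs of 0.218 and 0.215, against 0.155 between those. Its differences from the miR-205 arrays had SDs of 0.275 to 0.284, against 0.322 to 0.339 for the other control arrays. A dim level of 6.04 was set by the 95th percentile of the means of 341 olfactory receptor genes. Of the 43 collagen genes, 29 had a mean above it and 14 did not. Signals of different genes depend on their probes and were not ranked against each other as amounts of RNA.

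With the miR-205 mimic, 10 of 43 collagen genes fell and 0 rose at an adjusted p under 0.05 by limma. Those that fell were COL6A1, COL6A2 and COL6A3 of type VI collagen, COL4A1 and COL4A2 of type IV, the fibrillar genes COL5A1 and COL27A1, COL12A1 and COL20A1 of the fibril-associated class, and the membrane-spanning COL13A1. Over all genes, 26.6% passed the threshold, 14.0% lower and 12.6% higher. The collagen share that passed, 23.3%, was thus near the background for either direction, and it lay on the lower side in every case. At an unadjusted p under 0.05 there were 13 lower and 1 higher collagen genes, where 19.9% of all genes were lower and 17.9% higher. The groups did not overlap for 17 collagen genes with the miR-205 arrays lower and for 1 with them higher, where 22.2% and 19.9% of all genes did so. The median log2 difference (miR-205 minus control) was -0.09 over the 43 collagen genes and -0.02 over all genes. Without negative control replicate 2 the same 10 genes fell, and the collagen median was -0.13. Against that replicate alone, the median collagen difference of miR-205 arrays 1, 2 and 3 was 0.00, -0.03 and -0.04. It was -0.13, -0.15 and -0.16 against negative control replicate 1, and -0.08, -0.12 and -0.11 against replicate 3. The collagen shift was thus near 0 against 1 of the 3 control arrays.

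**Figure D1:**
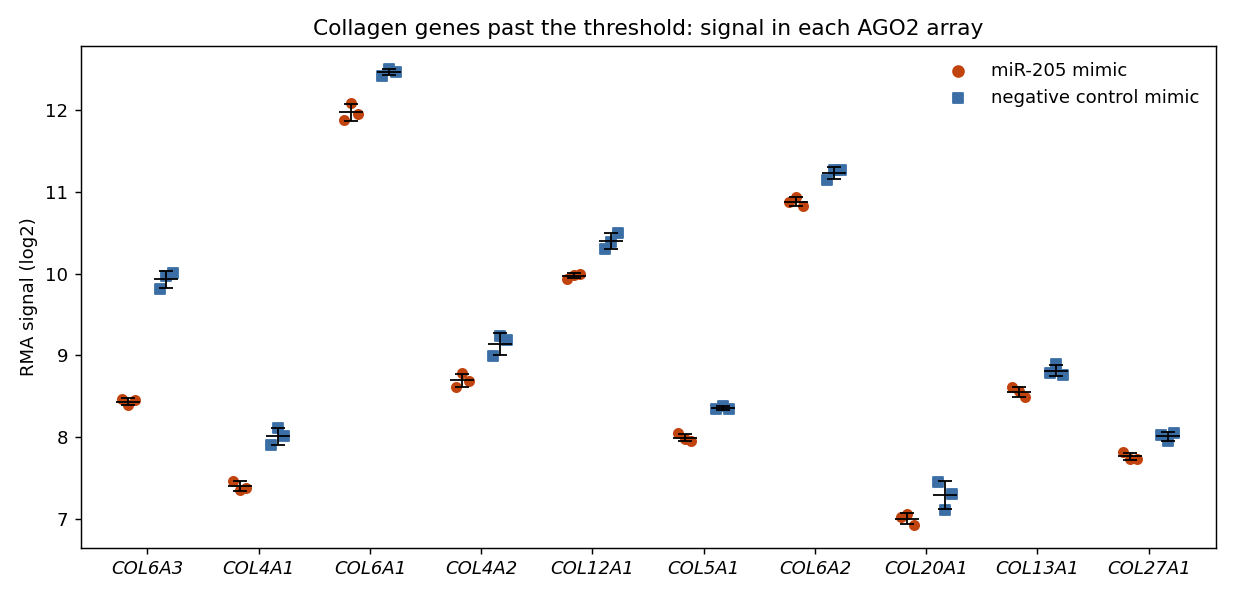
Log2 RMA signal of the 10 collagen genes past the threshold on each of the 6 AGO2 arrays, ordered by the size of their difference. Points are arrays (circles, miR-205 mimic; squares, negative control mimic), and bars give the mean and SD (n = 3 per group). In every gene the highest miR-205 array lies under the lowest control array, and the gap is widest for COL6A3.

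The collagen gene with the largest fall was COL6A3, of type VI collagen, a microfibril of the matrix around cells whose classical form joins the chains of COL6A1, COL6A2 and COL6A3. COL6A3 encodes the longest of these chains, whose cleaved end is the signalling fragment endotrophin. It stood at 8.47, 8.39 and 8.45 on the miR-205 arrays, against 9.81, 9.97 and 10.01 on the control arrays. The groups lay far apart for COL6A3, and each kept a narrow spread. Its log2 difference was -1.50 ± 0.07 (SE, n = 3 per group, limma adjusted p = 8.44e-06), so that the miR-205 signal was 35.4% of the control signal. Ordered from the largest fall, COL6A3 was gene 11 of 18417.

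COL6A1 and COL6A2 lie in tandem on chromosome 21, with 93063 bases between them, and COL6A3 lies on chromosome 2. COL6A1 stood at 11.88, 12.08 and 11.95 on the miR-205 arrays, against 12.42, 12.50 and 12.47 on the control arrays. COL6A2 stood at 10.87, 10.94 and 10.83 with miR-205, against 11.14, 11.27 and 11.27 with the control. In both genes every miR-205 array was lower than every control array, by a smaller margin than in COL6A3. The log2 difference was -0.49 ± 0.07 for COL6A1 (limma adjusted p = 0.00126) and -0.34 ± 0.07 for COL6A2 (limma adjusted p = 0.0055). The gap between COL6A3 and the mean of its partner genes was compared per array. The change of COL6A3 was more negative by 1.08 ± 0.07 on the log2 scale (miR-205 minus control of the gap -1.08, exact permutation p = 0.1, the smallest that 3 against 3 arrays can give, and 0.2 after adjustment over 6 pairs). The change of COL6A1 differed from that of COL6A2 by -0.15 ± 0.05 (exact permutation p = 0.1, adjusted 0.2). The other measured chains of this class, COL6A5 (0.06) and COL6A6 (-0.05), were dim and did not pass.

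Type IV collagen is the network of basement membranes. Its genes lie in head-to-head pairs whose transcription starts close together, COL4A1 with COL4A2 on chromosome 13, COL4A4 with COL4A3 on chromosome 2 and COL4A6 with COL4A5 on the X chromosome, with 126, 135 and 379 bases between the annotated genes. COL4A1 and COL4A2 make the form found in most basement membranes. COL4A1 stood at 7.47, 7.36 and 7.38 on the miR-205 arrays, against 7.91, 8.11 and 8.01 on the control arrays. COL4A2 stood at 8.62, 8.78 and 8.69 with miR-205, against 8.99, 9.24 and 9.19 with the control. Both genes of the pair were lower on every miR-205 array than on any control array. The log2 difference was -0.60 ± 0.07 for COL4A1 (limma adjusted p = 0.000462) and -0.45 ± 0.08 for COL4A2 (limma adjusted p = 0.0041). Those differences differed from each other by -0.16 ± 0.08 (exact permutation p = 0.2, adjusted 0.24). With 3 against 3 arrays this test cannot give a p under 0.1. It therefore cannot tell whether the genes fell by equal amounts.

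The other head-to-head pairs serve more restricted basement membranes, such as those of the kidney glomerulus. COL4A5 (0.05, 95% interval -0.09 to 0.19) and COL4A6 (-0.03, interval -0.16 to 0.10) did not pass. Their intervals leave out falls in array signal as large as that of COL4A2. COL4A6 had a mean of 6.42, near the dim level, so a fall of its transcript can still be missed. COL4A3 (0.02) and COL4A4 (-0.05) did not pass either. Both lay under the dim level of 6.04, where a change can be missed.

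**Figure D2:**
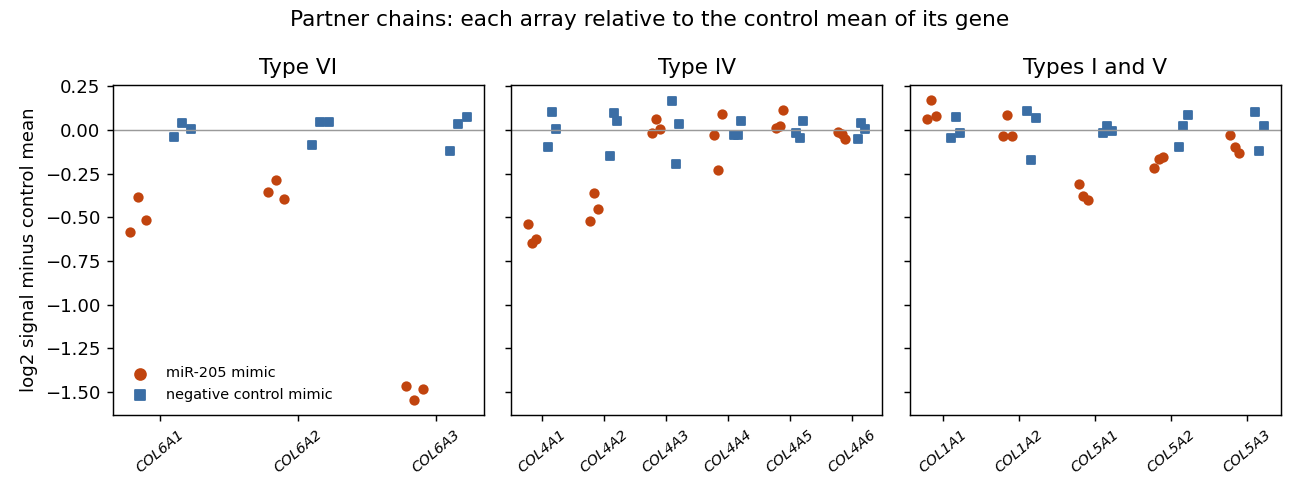
Log2 signal of each array minus the control mean of the same gene, for type VI, type IV and types I and V collagen genes (circles, miR-205 mimic; squares, negative control mimic; 3 arrays each). COL6A3 lies furthest below 0, COL6A1, COL6A2, COL4A1, COL4A2 and COL5A1 form a middle group, and COL4A3 to COL4A6 and the type I genes scatter around 0.

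Promoter windows of 300 bases (250 before and 50 after the annotated start) were at hand in RefSeq for 31 of the 43 genes. Shown are those of COL4A2, which shares 226 bases with the window of COL4A1, and of COL6A2 and COL6A3. The log2 differences of COL6A2 and COL6A3 were -0.34 and -1.50. A link between those values and the windows was not tested. Capitals mark matches on either strand, and no matches overlap in these windows. The GC box was searched as GGGCGG. The E-box that ZEB1 can bind was searched as CAGGTG. The CCAAT box was searched by the letters of its name, and the TATA box as TATAAA. The windows are from GRCh38.p14 and run 5′ to 3′ on the gene's strand: COL4A2 at chr13:110307034-110307333 (plus), COL6A2 at chr21:46097862-46098161 (plus) and COL6A3 at chr2:237414115-237414414 (minus).
COL4A2: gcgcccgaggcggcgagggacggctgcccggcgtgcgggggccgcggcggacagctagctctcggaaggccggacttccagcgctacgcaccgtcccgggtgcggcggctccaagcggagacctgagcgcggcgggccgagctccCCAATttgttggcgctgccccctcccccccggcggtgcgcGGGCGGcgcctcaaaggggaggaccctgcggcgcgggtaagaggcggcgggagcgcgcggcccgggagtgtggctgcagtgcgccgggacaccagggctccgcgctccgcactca
COL6A2: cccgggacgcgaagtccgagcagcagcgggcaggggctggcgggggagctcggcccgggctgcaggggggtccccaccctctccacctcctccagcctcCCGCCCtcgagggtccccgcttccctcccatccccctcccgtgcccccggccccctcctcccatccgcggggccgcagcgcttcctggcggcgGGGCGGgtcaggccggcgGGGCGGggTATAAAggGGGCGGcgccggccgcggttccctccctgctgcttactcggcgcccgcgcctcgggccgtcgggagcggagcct
COL6A3: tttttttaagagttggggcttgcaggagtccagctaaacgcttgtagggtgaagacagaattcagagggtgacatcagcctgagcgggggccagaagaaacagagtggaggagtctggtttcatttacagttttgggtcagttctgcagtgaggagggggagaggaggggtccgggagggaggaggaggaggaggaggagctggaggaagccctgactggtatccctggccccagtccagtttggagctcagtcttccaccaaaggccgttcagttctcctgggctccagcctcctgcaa
The COL4A2 window held 1 GC box and 1 CCAAT box, both inside the stretch shared with COL4A1, and 77.7% of its bases were G or C. The COL6A2 window held 4 GC boxes and 1 TATA box at 79.3% G or C. The COL6A3 window held 0 matches to any of these motifs at 56.3% G or C, close to the median of 58.7% over all 35116 windows. It also had 4 CpG dinucleotides, against 36 in the COL6A2 window and 45 in that of COL4A2. Over all windows, 45.0% held a GC box, 34.6% a CCAAT box, 20.6% an E-box of this kind and 11.5% a TATA box. These letters describe the windows only, and the arrays do not measure transcription from them.

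Of the fibrillar collagen genes, COL5A1 and COL27A1 fell. COL5A1 encodes a chain of type V collagen, which starts and limits the growth of type I fibrils. COL5A1 stood at 8.05, 7.98 and 7.96 on the miR-205 arrays, against 8.34, 8.38 and 8.35 on the control arrays, without overlap. Its log2 difference was -0.36 ± 0.06 (SE, n = 3 per group, limma adjusted p = 0.00229). Its partner COL5A2 stood at 8.71, 8.76 and 8.77 with miR-205 and at 8.83, 8.95 and 9.01 with the control. These groups did not overlap either, but the difference of -0.18 ± 0.07 missed the threshold (limma adjusted p = 0.076). It passed with dim genes removed (0.0488) or without negative control replicate 1 (0.0422). COL5A3, the third type V chain, had -0.09 (95% interval -0.25 to 0.08). The changes of COL5A1 and COL5A2 differed by -0.18 ± 0.07 (exact permutation p = 0.2, adjusted 0.24).

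COL27A1, a fibrillar collagen of cartilage, stood at 7.82, 7.74 and 7.74 with miR-205, against 8.03, 7.95 and 8.05 with the control. Its log2 difference was -0.24 ± 0.06 (limma adjusted p = 0.0179). This call was lost without miR-205 replicate 2 (0.0733) or 3 (0.0646) and without negative control replicate 1 (0.0515) or 3 (0.057).

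Genes of collagens I and III, the main fibrils of skin and bone, did not pass the test. COL1A1, a chain of type I collagen, stood at 9.0, 9.11 and 9.02 on the miR-205 arrays, against 8.89, 9.01 and 8.92 on the control arrays. The ranges overlapped, and the log2 difference was 0.11 (95% interval -0.04 to 0.25, limma adjusted p = 0.253). COL1A2 (0.00, interval -0.19 to 0.20) and COL3A1 (0.06, interval -0.11 to 0.23) lay nearer the dim level and did not pass. COL5A2 is the neighbour of COL3A1 on chromosome 2, with 19151 bases between them. The rest of the fibrillar class, COL2A1, COL11A1, COL11A2 and COL24A1, had differences of -0.11 to 0.10 and did not pass. COL11A2 had -0.11 with its brightest probe set, used here, and 0.10 with each of its dimmer ones. The median over the 11 fibrillar genes was -0.03.

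Fibril-associated collagens sit on the surface of fibrils and link them to other matrix. COL12A1, which coats type I fibrils in dense connective tissue, stood at 9.94, 9.98 and 10 with miR-205, against 10.30, 10.39 and 10.50 with the control. All miR-205 arrays were lower, with a log2 difference of -0.43 ± 0.07 (limma adjusted p = 0.00217). COL20A1, a little-studied member, stood at 7.03, 7.06 and 6.93 with miR-205, against 7.45, 7.11 and 7.31 with the control. Its lowest control array, negative control replicate 2, came close to the miR-205 arrays. The difference was -0.28 ± 0.09 (limma adjusted p = 0.0478), and the call was lost without any 1 of the other 5 arrays. The adjusted p was 0.101, 0.0881 and 0.148 without miR-205 replicates 1, 2 and 3, and 0.135 and 0.124 without negative control replicates 1 and 3. The other 8 members of the class did not pass. Among them the type IX genes COL9A2 (-0.16) and COL9A3 (-0.11), which encode partners of type II collagen in cartilage, had groups that did not overlap. COL9A1, the remaining type IX chain, had 0.02. COL22A1 (-0.19), COL19A1 (-0.11), COL16A1 (-0.07), COL14A1 (0.01) and COL21A1 (0.04) made up the rest.

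Transmembrane collagens have a short part inside the cell and shed their collagenous part. COL13A1, which helps to organise the neuromuscular junction and cell adhesions, stood at 8.61, 8.57 and 8.49 with miR-205, against 8.79, 8.89 and 8.76 with the control. The groups did not overlap, and the log2 difference was -0.26 ± 0.06 (limma adjusted p = 0.0194). This call was lost without miR-205 replicate 2 (0.059) or 3 (0.0748). COL23A1 (-0.01, 95% interval -0.16 to 0.15) and the dim COL25A1 (-0.07) did not pass. COL17A1, the hemidesmosome collagen, was not analysed here.

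COL18A1, a basement membrane collagen whose end fragment is endostatin, stood at 8.39 on each of the 3 miR-205 arrays, against 8.49, 8.52 and 8.65 on the control arrays. These ranges did not overlap, but the difference of -0.16 ± 0.06 missed the threshold (limma adjusted p = 0.0999). COL15A1, its relative in the multiplexin class, was dim (-0.09). COL7A1, the anchoring fibril that ties epithelium to the dermis, had -0.13 (95% interval -0.29 to 0.02) without overlap of the groups. Among the short-chain network genes, COL8A1, found in the matrix of vessels and of the eye, had the most positive difference of all members. COL8A1 stood at 5.23, 5.36 and 5.44 with miR-205, against 5.14, 5.07 and 5.22 with the control. It was the member whose miR-205 arrays were all higher, by 0.20 ± 0.07, but it was dim and did not pass (limma adjusted p = 0.079). COL8A2 (0.00) and COL10A1 (0.02), a marker of hypertrophic cartilage, did not pass, nor did COL26A1 (-0.09) and COL28A1 (-0.12).

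**Figure D3:**
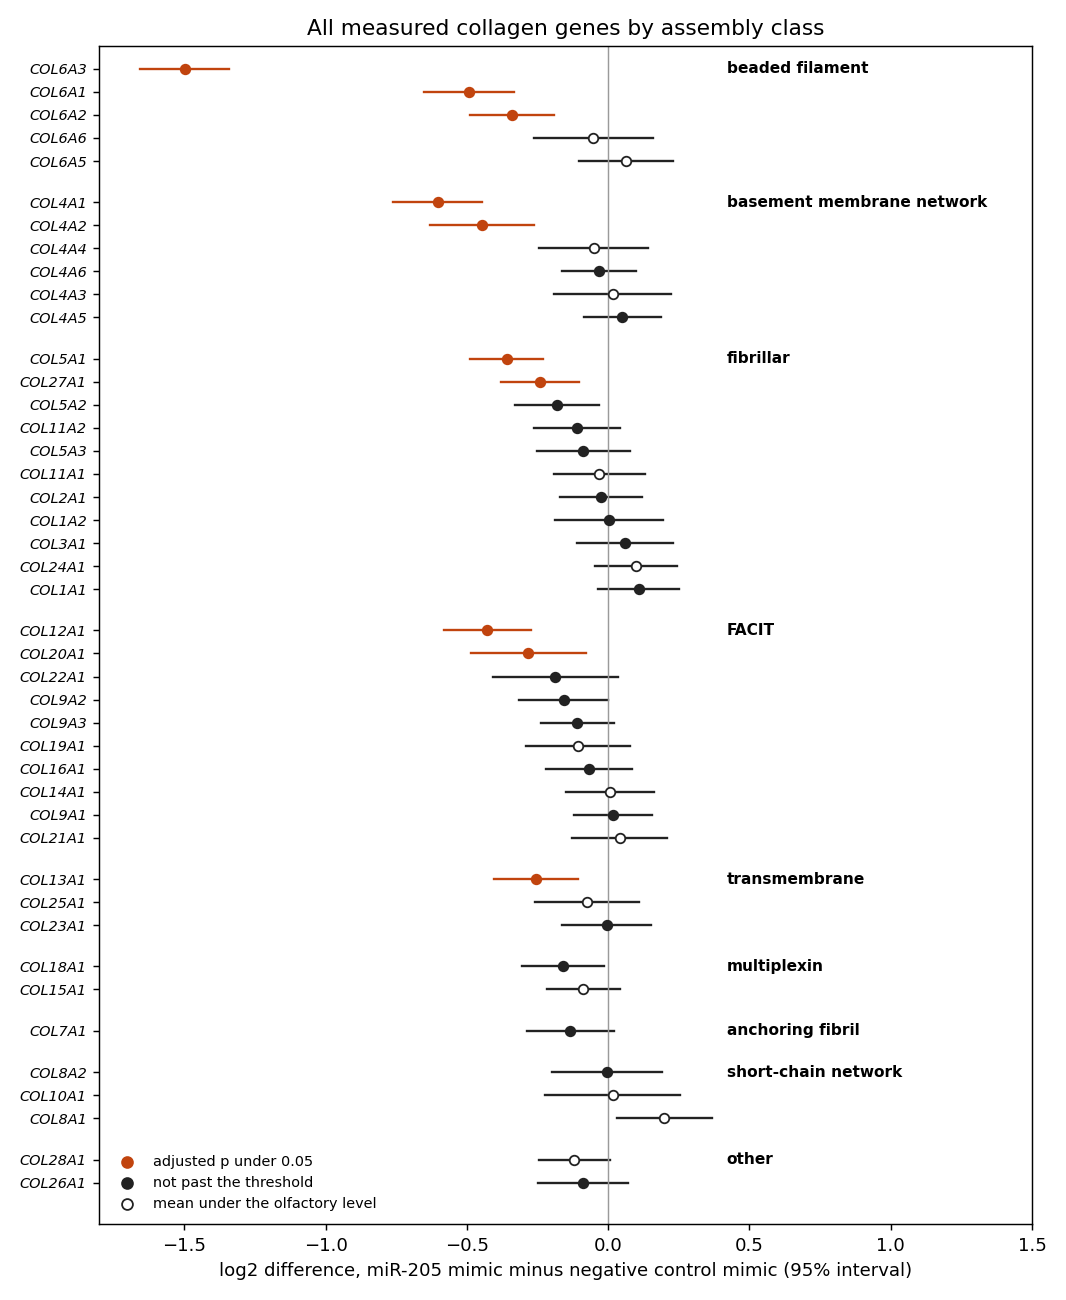
Log2 difference (miR-205 mimic minus negative control mimic) with its 95% interval for all 43 collagen genes, grouped by assembly class, from the limma fit over all genes (3 arrays per group). Coloured points passed the threshold, and open points had a mean under the olfactory level of 6.04. Coloured points all lie left of 0, from -0.24 to -1.50, and open points lie between -0.12 and 0.20.

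By class, 3 of 5 beaded filament genes, 2 of 6 basement membrane network genes, 2 of 11 fibrillar, 2 of 10 fibril-associated and 1 of 3 transmembrane genes fell. Their class medians were -0.34, -0.04, -0.03, -0.11 and -0.07 on the log2 scale. The fibrillar and fibril-associated shares, 18.2% and 20.0%, were near the 14.0% of all genes that fell. In the short-chain network (3 genes), multiplexin (2), anchoring fibril (1) and other (2) classes, 0 genes passed. All 10 genes that fell were among the 29 above the dim level, where 18.0% of all genes were lower and 15.8% higher. At or under that level 2.88% of all genes were lower, and 0 of 14 collagen genes passed by limma (1 at an unadjusted p under 0.05). Across the 43 collagen genes, Spearman's correlation of the mean signal with the log2 difference was -0.65, against 0.01 across all genes. It is a description over genes that share the same 6 arrays.

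**Figure D4:**
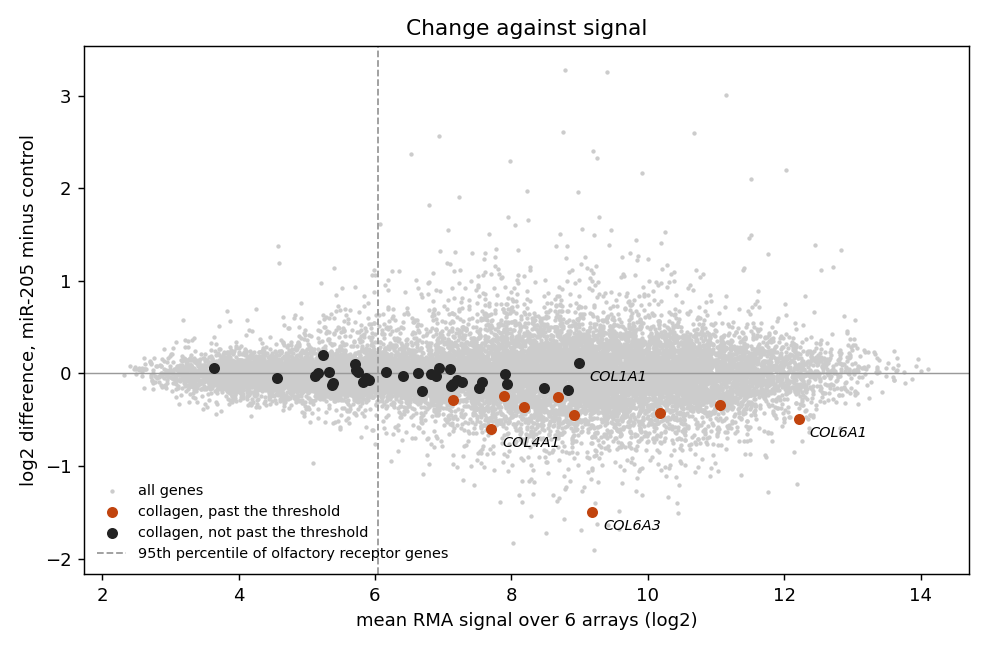
Log2 difference (miR-205 minus control) against the mean log2 signal over the 6 arrays, for all 18417 genes (grey) and the 43 collagen genes. The dashed line is the 95th percentile of olfactory receptor genes at 6.04. The collagen genes to its left stay near 0, and COL6A3 at -1.50 lies at the lower edge of the grey cloud.

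PC3 cells are epithelial in origin, and markers of other collagen-making cells were read beside these results. Of 5 epithelial markers measured, 4 rose and 0 fell by limma (0 lower also at an unadjusted p under 0.05). Over all genes, 12.6% rose and 14.0% fell, and above the dim level, where these 5 markers lay, 15.8% and 18.0% did. EPCAM, a cell adhesion molecule of epithelia, rose by 2.29 and the epithelial cadherin CDH1 by 1.91 (limma adjusted p = 6.70e-06 and 2.34e-06). The keratin genes KRT8, KRT18 and KRT19 were bright, with group means between 11.2 and 12.1. KRT8 rose by 0.89 and KRT18 by 0.55 (limma adjusted p = 6.39e-05 and 0.000274), and KRT19 had -0.03 and did not pass. The mean of the epithelial list was 10.6 on each of the miR-205 arrays and 9.42 to 9.51 on the control arrays, and its part in the collagen falls was not tested. Of 9 fibroblast markers, 6 lay under the dim level, among them DCN, LUM and FAP. The mean of the fibroblast list ranged from 4.93 to 5.06 on the miR-205 arrays and from 4.93 to 5.03 on the control arrays. LUM rose (0.36, limma adjusted p = 0.0459) and PDGFRA fell (-0.31, limma adjusted p = 0.0493). The LUM call was lost without any 1 array except miR-205 replicate 1 (0.0617 to 0.116), and its difference was 0.22 without miR-205 replicate 3. The PDGFRA call was lost without miR-205 replicate 1 or 2 or negative control replicate 1 or 3 (0.0874 to 0.158). Of 5 endothelial markers, PECAM1 (-0.98) and KDR (-0.94) fell, or 40%, where 14.0% of all genes fell. VWF, CDH5 and TEK lay under the dim level. The endothelial list mean was 6.03 to 6.11 with miR-205 and 6.42 to 6.55 with the control. Its part in the collagen result was not tested. Of 4 leukocyte markers, none passed by limma (1 at an unadjusted p under 0.05). ZEB1 fell by 0.82 (limma adjusted p = 9.43e-05).

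Genes that make, fold, export and cross-link collagen went both ways. Of 42 measured, 10 rose and 12 fell, or 23.8% and 28.6%, where 12.6% and 14.0% of all genes did. Of the 42, 40 lay above the dim level, where 15.8% of all genes rose and 18.0% fell. The median was -0.05. In the endoplasmic reticulum, lysyl hydroxylases modify lysines that later carry sugars and cross-links. PLOD2, which acts on the telopeptides, fell by 0.63 (11.39, 11.46 and 11.49 with miR-205, against 12.10, 12.11 and 12.02 with the control, limma adjusted p = 0.000198). PLOD1, which acts on the helix, fell by 0.29 (limma adjusted p = 0.0142, and 0.0568 without miR-205 replicate 1). PLOD3, which also adds glucose, rose by 0.42 (10.47, 10.61 and 10.47 with miR-205, against 10.04, 10.15 and 10.10 with the control, limma adjusted p = 0.00195). The changes of PLOD2 and PLOD3 differed by -1.05 ± 0.06 (exact permutation p = 0.1, adjusted 0.2). This pair was chosen after its opposite changes were seen, and the test cannot give a p under 0.1. It therefore adds nothing to the calls of the single genes. COLGALT1, which adds galactose to hydroxylysine, fell by 0.48 (limma adjusted p = 0.000579).

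Prolyl hydroxylases stabilise the helix. P4HA1, a catalytic subunit of the prolyl 4-hydroxylase, rose by 0.25, while its alternative P4HA2 fell by 0.34 and the shared subunit P4HB fell by 0.28 (limma adjusted p = 0.0102, 0.0112 and 0.00614). The prolyl 3-hydroxylase genes P3H1 and P3H3 fell by 0.34 and 0.39. CRTAP (-0.06) and PPIB (0.10), which work in a complex with P3H1, did not pass. The proline isomerase genes FKBP10 and FKBP14 and the chaperone gene SERPINH1 were higher. FKBP10, which assists lysyl hydroxylation of type I collagen, stood at 10.20, 10.33 and 10.26 with miR-205, against 9.45, 9.62 and 9.53 with the control. FKBP10 thus rose by 0.73 ± 0.07 (limma adjusted p = 0.000169). FKBP14 rose by 0.39 and SERPINH1, the collagen chaperone HSP47, by 0.28 (limma adjusted p = 0.0141 and 0.0126). Both calls were lost without miR-205 replicate 2 (0.0578 and 0.0595). TMEM38B, an ion channel of the endoplasmic reticulum whose loss impairs collagen assembly, fell by 0.48.

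Export and its regulation were higher where they passed. CREB3L1, a membrane-bound transcription factor that activates type I collagen genes in bone, stood at 9.68, 9.66 and 9.69 with miR-205, against 9.0, 8.98 and 9.04 with the control. It rose by 0.67 ± 0.06 (limma adjusted p = 9.7e-05). MIA2, which helps to load large cargo at exit sites, rose by 0.67 ± 0.06 (limma adjusted p = 0.000124), but with its dimmest probe set the difference was 0.13 (adjusted p = 0.217). Its partner MIA3 had 0.12 and did not pass. The coat genes SEC23A and SEC13 rose by 0.28 and 0.25, and the call of SEC13 was lost without miR-205 replicate 1 (0.0579).

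Outside the cell, LOXL2, a lysyl oxidase that cross-links type IV collagen, fell by 0.70 (10.46, 10.58 and 10.53 with miR-205, against 11.13, 11.33 and 11.21 with the control, limma adjusted p = 0.000226). LOX (-0.20, 95% interval -0.45 to 0.05) and LOXL1 (-0.05) did not pass. Of the genes that trim procollagen, TLL1 and the enhancer PCOLCE2 fell by 0.31 each (limma adjusted p = 0.0101 and 0.00614), and ADAMTS3 rose by 0.38 (0.0253). The convertase gene FURIN fell by 0.23 (limma adjusted p = 0.0313). ADAMTS3 lost its call without miR-205 replicate 1 (0.0816), 2 (0.0516) or 3 (0.0768). FURIN lost it without miR-205 replicate 1 (0.105), 2 (0.0936) or 3 (0.0582) and without negative control replicate 2 (0.0637) or 3 (0.0883).

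**Figure D5:**
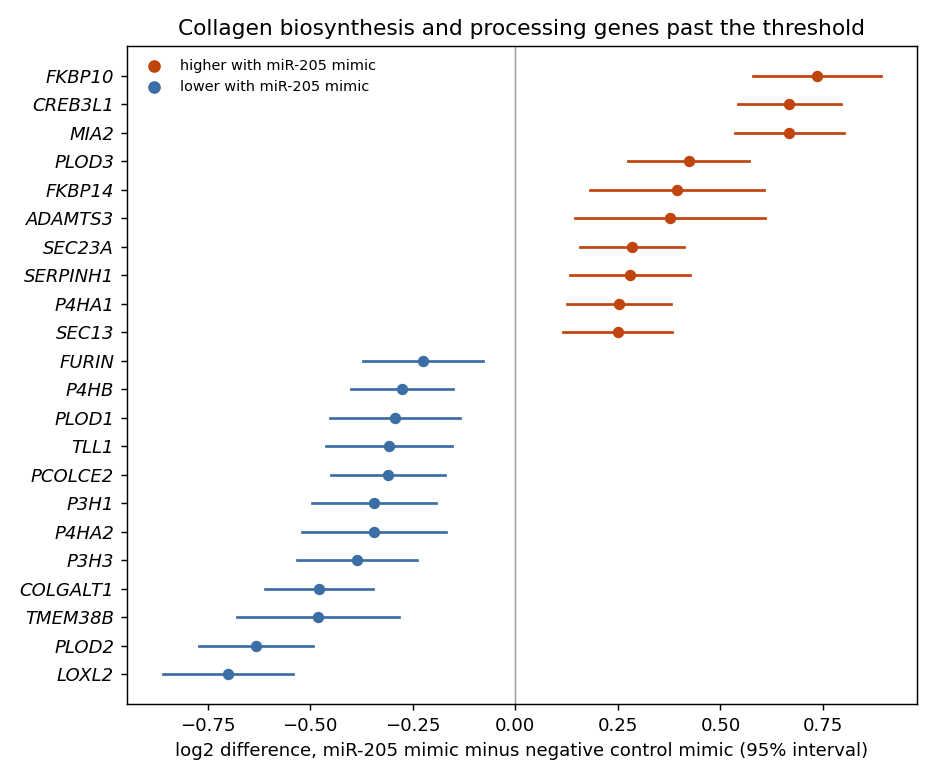
Log2 difference (miR-205 mimic minus negative control mimic) with its 95% interval for the 22 of 42 collagen biosynthesis and processing genes past the threshold (limma, 3 arrays per group). The 10 that rose lie between 0.25 and 0.73 and the 12 that fell between -0.23 and -0.70.

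Of 14 measured collagen receptor genes, 2 rose and 5 fell, or 14.3% and 35.7%, where 12.6% and 14.0% of all genes did. The share that rose was thus near the background. The median was -0.14. ADGRG6, an adhesion receptor that binds type IV collagen, rose by 0.55 (limma adjusted p = 0.000605), and the collagen receptor kinase DDR1 rose by 0.24 (0.0173). Its relative DDR2 fell by 0.43 (limma adjusted p = 0.002) at a dim signal. ADGRG1, which binds type III collagen, fell by 0.51, CD44 by 0.28, the uptake receptor MRC2 by 0.26 and the integrin chain ITGA2 by 0.22 (limma adjusted p = 0.0209). ITGB1, its partner, had -0.13 and did not pass. The call of DDR1 was lost without miR-205 replicate 2 (0.077) or negative control replicate 1 (0.0536), either of which left 1 receptor gene higher. That of ITGA2 was lost without miR-205 replicate 1 (0.0796) or 2 (0.075) or negative control replicate 3 (0.0634).

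Of 12 collagen-degrading protease genes, 4 fell and 0 rose by limma (0 also at an unadjusted p under 0.05). Those that fell were 33.3%, where 14.0% of all genes fell and 12.6% rose. The median was -0.09. The membrane-bound collagenase MMP14 stood at 9.10, 9.20 and 8.99 with miR-205, against 9.99, 10.19 and 10.09 with the control, a fall of 0.99 (limma adjusted p = 7.34e-05). The lysosomal cathepsins CTSB and CTSL fell by 0.56 and 0.55. MMP16 fell by 0.37 (limma adjusted p = 0.0319), a call lost without miR-205 replicate 1 (0.0538), 2 (0.112) or 3 (0.0573) or negative control replicate 1 (0.0905) or 3 (0.106). The interstitial collagenases MMP1 (0.10) and MMP13 (0.04) did not pass.

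Of 26 genes for matrix partners of collagen, 6 fell and 2 rose, or 23.1% and 7.69%, where 14.0% and 12.6% of all genes did. The median was -0.04. The glycoprotein TNC stood at 9.86, 9.84 and 9.88 with miR-205, against 10.97, 11.09 and 11.12 with the control. Its fall of 1.20 (limma adjusted p = 1.57e-05) lay between that of COL6A3 and those of the other collagen genes. NID2 fell by 0.84, NID1 by 0.74, LAMC1 by 0.74, FN1 (fibronectin) by 0.63 and LAMB1 by 0.26. NID1 and NID2 encode nidogens, which link the laminin and type IV collagen networks of the basement membrane. The call of LAMB1 was lost without miR-205 replicate 2 (0.0636) or 3 (0.0703) or negative control replicate 3 (0.0587). ABI3BP rose by 0.21, and the dim LUM, a fibril-binding proteoglycan, by 0.36. The ABI3BP call was lost without any 1 array except negative control replicate 2 (0.0527 to 0.0798), and the number that rose was 0 to 1 with any 1 array left out. SPARC, a collagen-binding glycoprotein, had -0.02 (95% interval -0.24 to 0.20) and did not pass.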

How the data were processed

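Expression Console 1.1.2 with RMA made the deposited values, per the submitters' processing notes: log2 intensities summarised per probe set and already quantile-normalized between arrays. They were used without further normalization, and no detection call was at hand. Of 33297 probe sets, 19460 carried a single gene symbol in the platform table. Where a gene had several, its brightest by mean represents it, and 18417 genes remained. A linear model with a term for the mimic was fitted per gene in limma 3.58.1 (R 4.3.3) with eBayes moderation. Its two-sided p-values were adjusted by Benjamini-Hochberg over the 18417 genes, and 0.05 was the threshold. The fit was tested on simulated data.

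The collagen genes and the other lists were chosen with earlier results of these data known, so no list was tested as a set. Named were all collagen genes past the threshold, the 10 with the highest mean signal, their partner chains, and up to 6 genes of each other list by smallest p, besides SERPINH1, LOX, ITGA2, DDR1, MMP14, SPARC and FN1. Further members of those lists were named after their values were seen, and so were the chain pairs and the pair of PLOD2 and PLOD3. Alternatives covered normalization, the choice of probe set, dim genes, the variance model, array weights, the replicate number and each array left out. Loci and promoter windows are from RefSeq on GRCh38.p14. The labels do not say whether the samples of a group came from separate cultures; the series design calls them biological replicates. The number of arrays limits the precision.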

Additional observations from a re-analysis of the deposited data

How the results depend on the processing

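Of the 10 collagen genes that fell, COL6A1, COL6A2, COL6A3, COL4A1, COL4A2, COL5A1 and COL12A1 passed under each of the 16 alternatives, with adjusted p of 0.0261 or less. COL13A1 passed in 14, COL27A1 in 12 and COL20A1 in 7. These 10 genes had 1 single-gene probe set each, so the alternatives for the choice of probe set left their values unchanged. Repeated quantile normalization acted on values already normalized in that way. Passing under those alternatives therefore says little. Between 7 and 10 collagen genes fell with 1 array left out and 9 to 11 under the other alternatives, and 0 rose under any. The collagen median ran from -0.126 to -0.058 with 1 array left out, and was -0.13 with dim genes removed. COL20A1 also missed the threshold with arrays centred on their medians (0.0501), with p adjusted over all probe sets (0.105) and, in a setting chosen after the data were seen, with the trend of change with signal removed (0.0623). The matrix partner genes that rose numbered 1 with repeated quantile normalization, with arrays centred, with dim genes removed, with array weights and with p adjusted over all probe sets, and 0 to 1 with 1 array left out. The receptor genes that rose numbered 1 to 3. SPARC, which did not pass, ran from -0.102 to 0.061 with 1 array left out, turning positive without miR-205 replicate 1 (0.000812) or 2 (0.042) or negative control replicate 3. The cause of these shifts was not tested. With the replicate number as a block, 9 collagen genes fell (COL20A1 missed, adjusted p = 0.0571), 0 rose and the all-gene counts were 2204 higher and 2423 lower. Deviations of same-numbered arrays correlated at 0.06, 0.09 and 0.01, so the numbers were not taken to pair the samples. Changes of the 14 dim collagen genes can be missed at this signal.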
